A study of Mus musculus with 12 samples.

Results

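The genes described here are 32 mouse genes of DNA repair and of the DNA damage checkpoint, followed in B16F10 cells, a mouse melanoma line. They were taken by name from a list of Fanconi anaemia, homologous recombination, mismatch repair and checkpoint kinase genes. The choice was made with earlier results of these data known, so shares of these genes called below are a description and no independent test. The genes taken make up 32 of the 55487 genes in the deposited count table. All 32 had reads in every library, with between 40 and 5010 reads per gene and library, and all 32 passed the filter on low counts.

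As background, the Fanconi proteins detect DNA strands that are covalently linked to each other, and their core complex attaches ubiquitin to the FANCD2 and FANCI pair, which directs the unhooking of the link. The break left behind is repaired by homologous recombination, in which BRCA1, PALB2, BRCA2 and a set of recombination paralogs prepare the broken end to pair with an intact copy, and RAD54 and BLM remodel the joined strands. Mismatch repair corrects copying errors, and the kinases ATM and ATR, acting through CHK2 and CHK1, halt the cell cycle when breaks or stalled forks are sensed. Many of these genes are known to be transcribed most in cells that are preparing for or passing through S phase.

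All 12 libraries came from wild-type B16F10 cells kept for 24 h in medium that macrophages grown from bone marrow had conditioned, with 3 libraries in each of 4 groups. The macrophages had first been held for 24 h in control medium (DMEM; the M0 group), in 20 ng/ml INF-γ, as the labels write interferon-γ (M1), in 20 ng/ml IL-4 (M2), or in 75% conditioned medium from B16F10 cells (labelled B16F10-BMDM; called TAM here after the tumour-associated macrophages of the series title). The title of TAM replicate 2 reads B16F107-BMDM, while its treatment label is that of the other two. The labels do not state whether the macrophage treatment was removed before the medium was collected, so INF-γ, IL-4 or melanoma medium carried over cannot be told apart from what the macrophages released. Nor do they say that each library is a culture of its own, so the p-values measure library-to-library spread that may be technical.

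Library totals ran from 15916756 to 20863973 reads. M0 replicate 1 stood apart: Pearson's r of log expression was 0.945 and 0.948 between it and the 2 further M0 libraries, against 0.992 to 0.993 within the groups otherwise, and ribosomal protein genes held 8.17% of its reads against 3.65% to 4.26% in the other 11 libraries. It was also poor in long transcripts, with a read-weighted mean exon length of 4545 bp against 5819 to 6091 bp elsewhere. This touched the repair genes directly. M0 replicate 1 lay below both other M0 libraries for 23 of the 32 and above both for 7. Its level relative to the mean of M0 replicates 2 and 3 had a median of 1.13 over the 10 genes with merged exons under 4000 bp, 0.668 over the 12 genes from 4000 to 8000 bp, and 0.577 over the 10 longer genes, where Atm was lowest at 0.0726. Single genes did not all follow length, as the ranges were 0.756 to 1.67, 0.354 to 1.07 and 0.0726 to 1.57. Every comparison is therefore given with all 12 libraries and again without M0 replicate 1. All groups shared 1 estimate of the spread, also in comparisons that M0 is no part of. The common dispersion was 0.0324 with this library and 0.00166 without it.

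**Figure D1:**
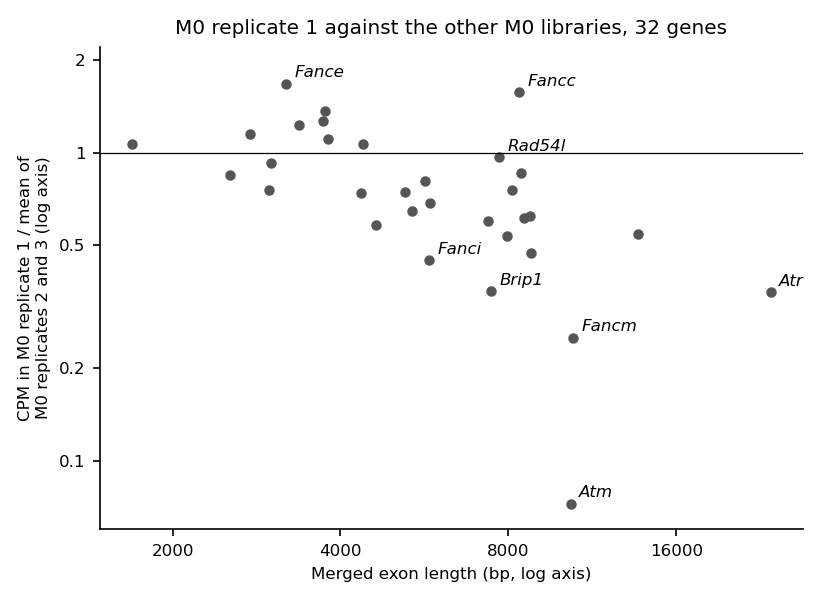
Level in M0 replicate 1 divided by the mean of M0 replicates 2 and 3 (y axis, log scale) against merged exon length in bp (x axis, log scale) for the 32 genes, 1 point per gene. The line marks equal levels; Atm, at 0.0726, is the lowest point and Fance and Fancc lie above the line.

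The genes that define the labelled cell type were present. All 8 melanocyte markers examined were detected in every library, and their summed level differed between groups: it was 20810 to 21034 CPM (reads relative to library size, here before scaling) in M0, 19358 to 19725 in M2, 13979 to 14486 in M1 and 14634 to 15471 in TAM. The part of these marker levels in the repair gene results was not tested. Of 15 macrophage markers, 7 had no read in any library (Ptprc, Adgre1, Itgam, Tyrobp, C1qa, C1qb and C1qc), and the 15 together summed to 5.18 to 7.77 CPM in M0, 6.49 to 7.03 in M1, 5.46 to 6.38 in M2 and 3.59 to 4.44 in TAM. Of 8 fibroblast and endothelial markers, Dcn, Cdh5 and Kdr had no read, and the sum was 9.46 to 10.6 CPM in TAM against 2.49 to 5.42 in the other groups. In TAM most of it was Col1a1.

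Levels below are CPM after TMM scaling, which adjusts each library for its composition, and levels of different genes are compared only after division by merged exon length (CPM per kb). Changes are log2 differences with an approximate standard error after the ± sign. On that scale Msh6, the mismatch sensor, was highest in the M2 group at 40.5 CPM per kb, followed by the break-binding partners Rad50 at 22.7 and Nbn at 21.05, and by Brca1 at 17.8. Most genes lay between 2.11 (Pms2) and 15.8 (Xrcc3). The lowest were Atr at 1.74, whose merged exons span 23629 bp, and the core complex gene Fancc at 1.17. Replicates of M1, M2 and TAM agreed closely: the coefficient of variation over 3 libraries had a median over the 32 genes of 5.15% in M1, 4.04% in M2 and 4.89% in TAM, and of 20.4% in M0.

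Most of the repair genes were lower in cells given TAM medium. With all 12 libraries, 21 of the 32 were lower in TAM than in M0 and 2, Rad51c and Atr, were higher (edgeR's quasi-likelihood test, Benjamini-Hochberg adjusted p under 0.05 over 14591 genes), where 27.2% of all genes tested were called lower and 23.3% higher. The median log2 change of the 32 was −0.67, against −0.02 over all genes. Without M0 replicate 1, 27 were lower and the same 2 higher, against backgrounds of 33.7% and 33%, and the median was −0.80 against 0.00. Of the genes called, 22 kept their direction in both fits. The 5 largest decreases were those of Rad54l, Fancb, Exo1, Fanca and Rad51b, and 10 genes were lower by at least 2-fold (13 without M0 replicate 1). The share of all genes lower by at least 2-fold was not taken, so this count has no background beside it. In bulk RNA, a lower level in every cell and a smaller share of cells that hold the transcript cannot be told apart.

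The same cells can be set against the other media, which share the TAM libraries with the comparison above. Against M2, 21 genes were lower in TAM and 1, Rad51c, was higher (background 22.6% lower, 20.7% higher). Without M0 replicate 1, 28 were lower and 2 higher (35.3% and 34.2%), and a fit of the TAM and M2 libraries alone also gave 28 and 2 (36.8% and 36.3%). Against M1, 21 were lower and 1, Chek2, was higher (23.3% and 19.8%), and without M0 replicate 1, 27 were lower and 2, Atr and Chek2, higher (37.7% and 32.4%). The fit of TAM and M1 alone gave 24 and 2 (36.8% and 36.4%). M0 replicate 1 is in neither pair of groups. It can act there through what the groups share in a fit, which is the estimate of spread, the scaling and the filter. Leaving it out moved the median log2 change over all genes from −0.0004 to −0.0393 against M1. The part of each was not tested. The median log2 change was −0.77 against M2 and −0.67 against M1. Taken by library, 17 of the 32 genes had all 3 TAM libraries below all 9 others, which held for 21.2% of all genes; without M0 replicate 1 it was 25, with a background of 26.1%. The plot of levels by library shows this separation for Rad54l, Fanca, Exo1, Msh6 and Brca1, and its absence for Fancl and Chek2.

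**Figure D2:**
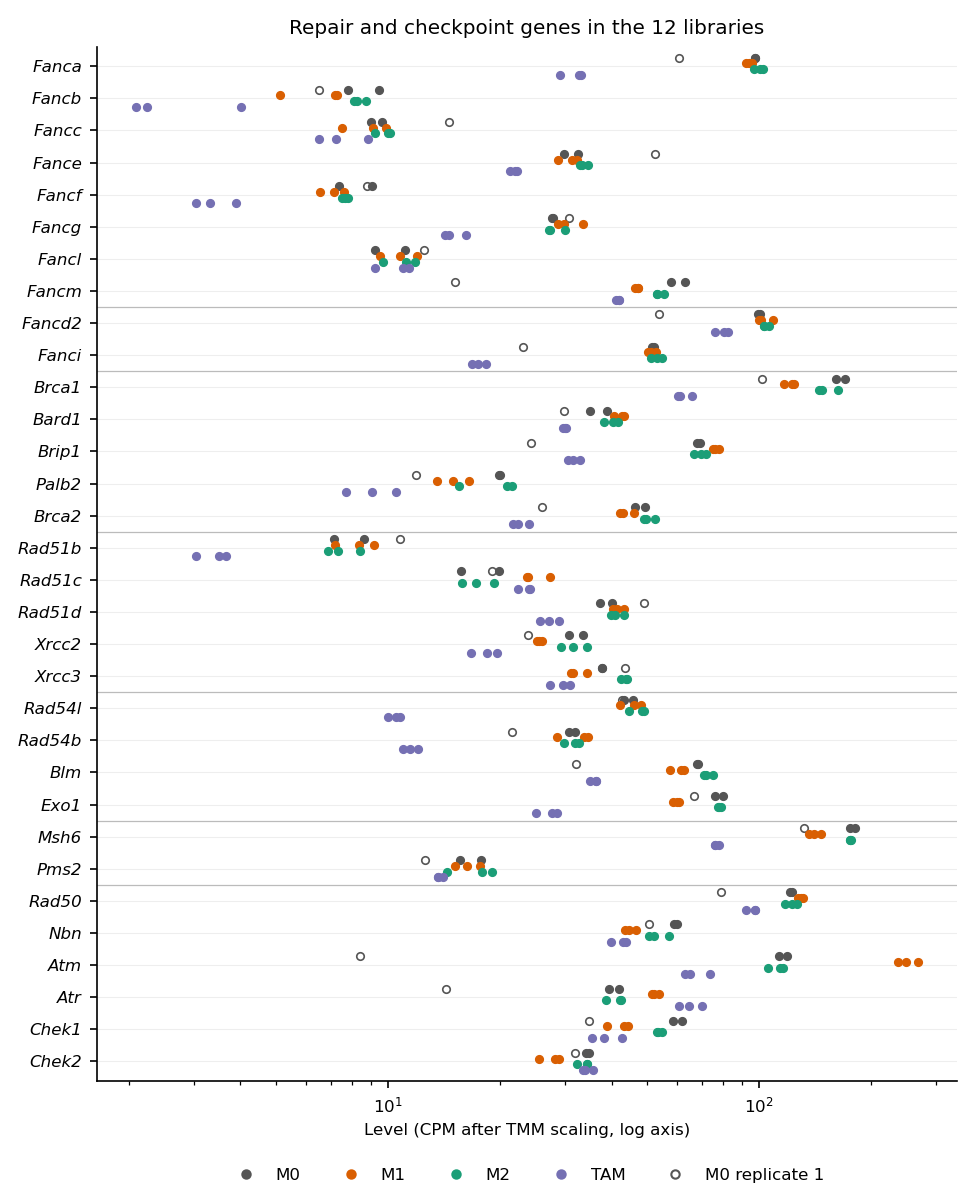
Level of each of the 32 genes (CPM after TMM scaling, log axis) in the 12 libraries, 1 point per library, coloured by group, with M0 replicate 1 as an open circle; grey lines part the role groups. The TAM libraries lie left of the others for most genes, while Atm is highest in M1 and Atr is highest in TAM.

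**Figure D3:**
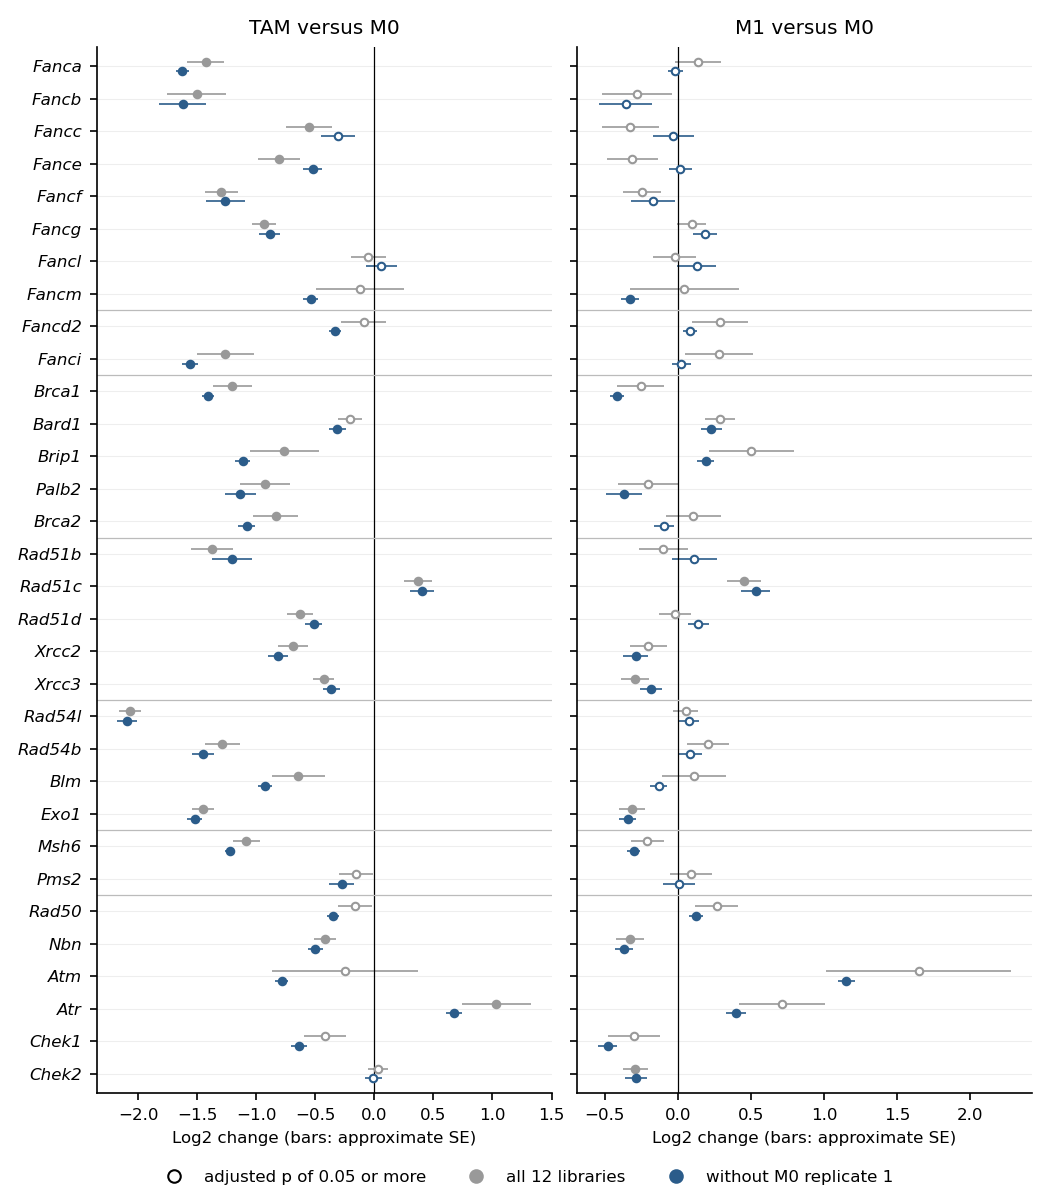
Log2 change of each gene in TAM versus M0 (left) and M1 versus M0 (right), with all 12 libraries (grey) and without M0 replicate 1 (blue); bars are approximate standard errors and open circles did not pass an adjusted p of 0.05. In TAM 21 grey points are filled on the lower side, against 4 in M1.

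The promoters of the 32 genes were searched for short words known to be bound by cell cycle factors. RefSeq (GRCm38.p6) gave promoter windows, from 250 bases before to 50 after the start site, for 25 of the 32 genes. The E2F-type words searched on both strands were TTTCCCGC, TTTGGCGC, TTTGCCGC and TTTCGCGC, and 6 of the 25 genes (24%) held at least 1, against 2.6% of the 27025 genes in the table. The 6 were Fancg, Bard1, Brca2, Rad51c, Msh6 and Chek2. CCAAT, the word of the factor NF-Y, was in 17 of 25 (68%) against 41.1%, and the CHR words TTTGAA and TTCGAA were in 3 (12%) against 21.7%. A wider list of other repair genes, described below, had windows for 73 genes. Of these, 9 (12.3%) held an E2F-type word, 38 (52.1%) CCAAT and 10 (13.7%) a CHR word. The genes with an E2F-type word were not of 1 kind in their change, as they included Rad51c, which was higher in TAM than in M0, and Chek2, whose TAM and M0 libraries overlapped. A match is a description of the sequence and no evidence of binding, and its absence says only that these letters are not in the window.

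The 250 bases before the start site are shown for the 4 genes with an E2F-type word there, and for Rad54l, the gene with the largest decrease, which had none. Sequences run 5′ to 3′ along the gene's strand, and capitals mark the word, which reads as the reverse complement GCGGGAAA where it lies on the opposite strand. They cover chr4:43010302-43010551 on the minus strand (Fancg), chr1:71102973-71103222 on the minus strand (Bard1), chr5:150522371-150522620 on the plus strand (Brca2), chr5:110839733-110839982 on the plus strand (Chek2) and chr4:116123691-116123940 on the minus strand (Rad54l). Counted from the start site as 0, the first base of the word was at −52 in Fancg, −209 in Bard1, −168 in Brca2 and −152 in Chek2.
Fancg: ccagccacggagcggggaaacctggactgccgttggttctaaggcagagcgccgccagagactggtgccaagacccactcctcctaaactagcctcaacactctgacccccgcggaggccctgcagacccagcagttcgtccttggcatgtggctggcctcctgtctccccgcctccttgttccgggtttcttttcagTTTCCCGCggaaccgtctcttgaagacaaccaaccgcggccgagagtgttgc
Bard1: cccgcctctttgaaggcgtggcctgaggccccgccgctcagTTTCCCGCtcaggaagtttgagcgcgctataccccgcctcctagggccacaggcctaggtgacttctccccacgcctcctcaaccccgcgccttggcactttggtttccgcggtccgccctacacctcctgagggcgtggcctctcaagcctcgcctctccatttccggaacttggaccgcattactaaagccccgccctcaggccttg
Brca2: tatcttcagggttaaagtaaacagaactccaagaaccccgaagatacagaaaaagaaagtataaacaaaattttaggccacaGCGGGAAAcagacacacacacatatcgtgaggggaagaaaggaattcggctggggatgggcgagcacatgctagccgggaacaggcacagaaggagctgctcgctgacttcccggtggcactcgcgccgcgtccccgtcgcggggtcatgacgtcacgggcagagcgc
Chek2: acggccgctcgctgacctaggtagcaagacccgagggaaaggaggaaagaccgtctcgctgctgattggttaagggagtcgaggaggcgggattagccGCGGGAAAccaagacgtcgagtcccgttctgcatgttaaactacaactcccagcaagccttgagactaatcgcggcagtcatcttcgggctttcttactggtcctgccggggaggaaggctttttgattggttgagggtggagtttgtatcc
Rad54l: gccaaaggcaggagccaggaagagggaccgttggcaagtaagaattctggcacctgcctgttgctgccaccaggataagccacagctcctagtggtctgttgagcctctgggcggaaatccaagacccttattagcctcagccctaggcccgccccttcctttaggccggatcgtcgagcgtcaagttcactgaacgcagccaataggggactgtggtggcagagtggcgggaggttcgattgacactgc

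Among the 8 genes of the Fanconi core complex, 6 were lower in TAM than in M0 and none was higher, with a median log2 change of −0.87. Over all genes tested, 27.2% were called lower and 23.3% higher. Fanca (chr8:123268300-123318576, minus strand), a scaffold subunit of the complex, was measured at 60.7, 97.3 and 97.6 CPM in the M0 libraries, 92.3, 93.8 and 95.5 in M1, 102, 96.96 and 101 in M2 and 29.1, 33.03 and 32.7 in TAM. All TAM libraries lay below every other library, and the log2 change from M0 was −1.43 ± 0.16 (edgeR adjusted p = 2.92e-05), or −1.63 ± 0.06 without M0 replicate 1 (edgeR adjusted p = 9.28e-31). Fancb (chrX:164980592-164997272, plus strand), which pairs with the ubiquitin ligase subunit FANCL in the complex, was at 6.52, 9.45 and 7.81 CPM in the M0 libraries, 5.11, 7.20 and 7.29 in M1, 8.11, 8.72 and 8.26 in M2 and 2.09, 2.24 and 4.02 in TAM. These low levels varied more in TAM, where replicate 3 was higher than the other two and still below all other libraries. The log2 change of Fancb from M0 was −1.50 ± 0.25 (edgeR adjusted p = 0.000526). For Fancf (chr7:51860577-51862267, minus strand), an adaptor within the complex, levels were 8.75, 9.08 and 7.38 CPM in the M0 libraries, 7.14, 7.61 and 6.55 in M1, 7.80, 7.63 and 7.49 in M2 and 3.03, 3.89 and 3.31 in TAM. TAM did not overlap the other groups, and the change was −1.30 ± 0.14 (edgeR adjusted p = 1.82e-05). On the opposite strand Gas2 overlaps 15% of the merged exons of Fancf, and had 1896 reads over all libraries against 1501 for Fancf. Likewise Zfp276 overlaps 10.5% of those of Fanca. Whether the counting used strand is not given, so some reads could belong to these neighbours. Fancg, an adaptor with the E2F-type word shown above, fell 1.91-fold (edgeR adjusted p = 2.28e-05).

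Fance and Fancc were also called lower. Both were high in M0 replicate 1, and the call of Fancc was lost without it while that of Fance was kept. Fance, which links the core to FANCD2, had a log2 change of −0.81 ± 0.18 (edgeR adjusted p = 0.00305) and of −0.52 ± 0.08 without M0 replicate 1 (edgeR adjusted p = 8.57e-08). Fancc had −0.56 ± 0.19 (edgeR adjusted p = 0.0338) and −0.31 ± 0.14 without M0 replicate 1 (edgeR adjusted p = 0.0529), and its call was also lost without TAM replicate 1, at −0.46 (edgeR adjusted p = 0.116), and without TAM replicate 3, at −0.53 (edgeR adjusted p = 0.0915). Fancl, the ligase subunit itself, was the only one of the 32 genes called in no comparison of either fit. It ran from 9.20 to 11.4 CPM in TAM and from 9.72 to 11.9 in M2. On the opposite strand Vrk2 overlaps 13.7% of the merged exons of Fancl, so some reads could belong to that neighbour. Fancm, the DNA translocase that anchors the complex, was at 15.2, 63.02 and 57.9 CPM in M0 and at 41.02 to 41.97 in TAM. Its TAM libraries thus lay above M0 replicate 1 and below the other M0 libraries, and its log2 change was −0.12 ± 0.37 (edgeR adjusted p = 0.801) with all libraries and −0.54 ± 0.06 without M0 replicate 1 (edgeR adjusted p = 5.61e-11).

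The 2 members of the ID pair, the ubiquitinated clamp that the core complex acts on, differed from each other. Fanci (chr7:79391929-79450264, plus strand) was at 23.1, 51.4 and 52.1 CPM in the M0 libraries, 51.2, 52.7 and 50.2 in M1, 54.8, 52.99 and 51.1 in M2 and 18.4, 16.8 and 17.5 in TAM. Every TAM library was below every other library, and the log2 change from M0 was −1.26 ± 0.24 (edgeR adjusted p = 0.00128), or −1.56 ± 0.07 without M0 replicate 1 (edgeR adjusted p = 5.74e-26). Fancd2, described here after its values were seen, was at 53.7, 99.5 and 101 CPM in the M0 libraries, 99.9, 109 and 101 in M1, 106, 103 and 103 in M2 and 75.8, 82.2 and 80.2 in TAM. Its TAM libraries lay above M0 replicate 1 and below the 8 others. The log2 change was −0.09 ± 0.19 (edgeR adjusted p = 0.711) with all libraries and −0.34 ± 0.05 without M0 replicate 1 (edgeR adjusted p = 6.66e-08). Fanci reads per Fancd2 read were 0.243, 0.204 and 0.219 in the TAM libraries, against 0.516, 0.514 and 0.497 in M2, 0.512, 0.483 and 0.497 in M1 and 0.430, 0.517 and 0.519 in M0. The ratio in TAM was below that in all 9 other libraries. Of the merged exons of Fanci, 16% overlap Polg on the opposite strand; whether the counting used strand is not given in the sources used here, so some reads could belong to the neighbour.

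**Figure D4:**
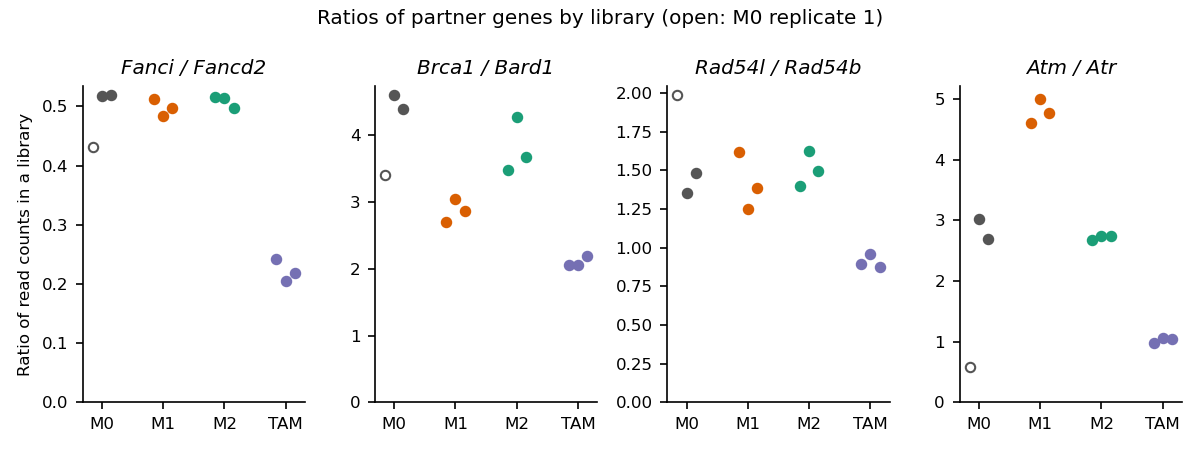
Ratio of the read counts of 4 gene pairs in each library by group, with M0 replicate 1 as an open circle and axes that start at 0. The Fanci to Fancd2 ratio is 0.204 to 0.243 in TAM and 0.43 or more in all other libraries, and the Atm to Atr ratio is near 1 in TAM and above 4.6 in M1.

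Of the 5 BRCA partners, 4 were lower in TAM than in M0 with all libraries and all 5 without M0 replicate 1. All 5 were lower than in M1 and M2 in both fits. Against M1, the call of Palb2 was lost without M1 replicate 3, at −0.66 (edgeR adjusted p = 0.0604). It was also lost without TAM replicate 2, at −0.66 (edgeR adjusted p = 0.0601). The share of all genes lower than in M0 was 27.2%, or 33.7% without M0 replicate 1. It was 23.3% and 37.7% against M1, and 22.6% and 35.3% against M2. Brca1 (chr11:101488764-101551955, minus strand), which starts the processing of breaks toward recombination, was at 101, 161 and 171 CPM in the M0 libraries, 117, 124 and 122 in M1, 145, 163 and 148 in M2 and 61.3, 60.6 and 65.9 in TAM. TAM libraries were the lowest and M0 replicates 2 and 3 among the highest. The log2 change of Brca1 from M0 was −1.21 ± 0.16 (edgeR adjusted p = 0.000129), or −1.41 ± 0.05 without M0 replicate 1 (edgeR adjusted p = 4.71e-30). Palb2 (chr7:122107262-122132985, minus strand), the bridge between BRCA1 and BRCA2, was at 11.9, 19.97 and 19.8 CPM in the M0 libraries, 13.5, 14.9 and 16.5 in M1, 21.5, 15.5 and 20.9 in M2 and 9.04, 7.72 and 10.5 in TAM. All TAM libraries were again lowest, with a log2 change of −0.92 ± 0.21 (edgeR adjusted p = 0.00409). Brca2 (chr5:150522630-150570329, plus strand), the partner of PALB2 in strand exchange, was at 25.9, 46.3 and 49.3 CPM in the M0 libraries, 45.9, 42.9 and 42.3 in M1, 49.6, 52.3 and 48.99 in M2 and 21.7, 22.4 and 23.9 in TAM, a change of −0.84 ± 0.19 (edgeR adjusted p = 0.00404). Brip1, the helicase partner of BRCA1, was at 24.3, 67.97 and 69.2 CPM in M0 and 31.6, 30.6 and 32.99 in TAM. Its change was −0.76 ± 0.29 (edgeR adjusted p = 0.0492) with all libraries and −1.12 ± 0.06 without M0 replicate 1 (edgeR adjusted p = 9.77e-23). The first of these calls was lost when any 1 of the other 11 libraries was left out, with adjusted p from 0.0641 to 0.157.

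Bard1, the obligate partner of BRCA1 and chosen here after its values were seen, changed less than Brca1. It was at 29.9, 34.99 and 38.9 CPM in the M0 libraries, 43.3, 40.7 and 42.7 in M1, 41.6, 38.2 and 40.3 in M2 and 29.9, 29.6 and 30.1 in TAM. TAM libraries overlapped M0 replicate 1 and lay below all 8 others. The log2 change from M0 was −0.21 ± 0.10 (edgeR adjusted p = 0.104) with all libraries and −0.31 ± 0.07 without M0 replicate 1 (edgeR adjusted p = 0.000143). Brca1 reads per Bard1 read were 2.05, 2.05 and 2.19 in TAM, against 2.70, 3.05 and 2.86 in M1, 3.48, 4.26 and 3.67 in M2 and 3.40, 4.60 and 4.39 in M0. The TAM values lay below those of every other group.

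The recombination paralogs, which act on the single-stranded DNA of a processed break, split. In both fits 4 of 5 were lower in TAM than in M0 and Rad51c was higher. Backgrounds over all genes were 27.2% lower and 23.3% higher, or 33.7% and 33% without M0 replicate 1. Rad51b (chr12:79297282-79814690, plus strand) was at 10.8, 8.64 and 7.14 CPM in the M0 libraries, 8.34, 7.20 and 9.17 in M1, 8.41, 7.34 and 6.89 in M2 and 3.50, 3.04 and 3.67 in TAM. All TAM libraries lay below the lowest of the others, with a log2 change of −1.38 ± 0.18 (edgeR adjusted p = 7.96e-05). Xrcc2 (chr5:25689812-25705825, minus strand) was at 23.9, 33.5 and 30.8 CPM in the M0 libraries, 25.5, 25.2 and 26.04 in M1, 34.4, 31.5 and 29.3 in M2 and 19.6, 16.7 and 18.4 in TAM, a change of −0.69 ± 0.13 (edgeR adjusted p = 0.00114). Rad51d (chr11:82876434-82890614, minus strand) was at 48.99, 37.2 and 40.2 CPM in the M0 libraries, 43.3, 40.4 and 41.3 in M1, 43.1, 40.8 and 39.7 in M2 and 25.7, 27.1 and 28.9 in TAM, a change of −0.63 ± 0.11 (edgeR adjusted p = 0.000668). Both had all TAM libraries below the 9 others. Xrcc3 changed by −0.43 ± 0.09 (edgeR adjusted p = 0.00267), and its TAM libraries lay just under those of M1, which ran from 31.03 to 34.4 CPM. Rad51c (chr11:87376645-87404954, minus strand), which takes part in both paralog complexes, went the other way, at 19.1, 19.9 and 15.8 CPM in the M0 libraries, 27.3, 23.9 and 23.7 in M1, 19.3, 15.8 and 17.3 in M2 and 24.04, 22.3 and 24.1 in TAM. M1 and TAM libraries lay above all M0 and M2 libraries. The change in TAM was 0.37 ± 0.12 (edgeR adjusted p = 0.0238) against M0 and 0.43 ± 0.12 (edgeR adjusted p = 0.0125) against M2, or 1.29-fold and 1.35-fold. The call against M0 was lost without M0 replicate 3, at 0.26 (edgeR adjusted p = 0.0871), without TAM replicate 1, at 0.35 (edgeR adjusted p = 0.0668), and without TAM replicate 3, at 0.35 (edgeR adjusted p = 0.07). That against M2 was lost without M2 replicate 2, at 0.35 (edgeR adjusted p = 0.0643). Within TAM, Rad51d reads per Rad51c read were 1.07, 1.21 and 1.20, against 2.24, 2.58 and 2.30 in M2.

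All 4 genes of strand exchange, unwinding and resection were lower in TAM than in M0 in both fits. The share of all genes called lower was 27.2%, or 33.7% without M0 replicate 1. Rad54l (chr4:116094264-116123690, minus strand), the motor that remodels joint molecules, had the largest decrease of the 32 genes against M0, M1 and M2. It was at 42.8, 43.1 and 45.6 CPM in the M0 libraries, 46.1, 42.2 and 48.1 in M1, 44.6, 48.3 and 48.8 in M2 and 10.8, 10.5 and 9.99 in TAM. M0 replicate 1 did not stand apart for this gene. The log2 change was −2.07 ± 0.09 (edgeR adjusted p = 4.33e-08) against M0, a 4.20-fold decrease, and −2.18 ± 0.09 (edgeR adjusted p = 3.87e-08) against M2. Exo1 (chr1:175880581-175913489, plus strand), a nuclease of end resection and mismatch removal, was at 66.8, 79.7 and 75.9 CPM in the M0 libraries, 58.4, 60.7 and 60.01 in M1, 78.95, 77.7 and 77.6 in M2 and 24.98, 28.6 and 27.7 in TAM, a change of −1.45 ± 0.09 (edgeR adjusted p = 4.71e-07). Its M1 libraries also lay below all M0 and M2 libraries. Rad54b (chr4:11558922-11615805, plus strand), a relative of Rad54l, was at 21.5, 31.9 and 30.7 CPM in the M0 libraries, 28.5, 33.8 and 34.7 in M1, 31.9, 29.7 and 32.6 in M2 and 12.02, 10.96 and 11.4 in TAM, a change of −1.29 ± 0.15 (edgeR adjusted p = 3.77e-05). TAM libraries of Exo1 and Rad54b did not overlap any other. Rad54l reads per Rad54b read were 0.896, 0.959 and 0.873 in TAM and between 1.25 and 1.99 in all other libraries. Blm, the helicase that dissolves joint molecules, changed by −0.64 ± 0.22 (edgeR adjusted p = 0.0318) with all libraries and −0.93 ± 0.06 without M0 replicate 1 (edgeR adjusted p = 1.55e-19). The first call was lost without M0 replicate 2 or 3 or any 1 TAM library, with adjusted p from 0.0768 to 0.102. On the opposite strand Lrrc41 overlaps 15.4% of the merged exons of Rad54l, and on the same strand Fsbp covers 35.8% of those of Rad54b, so the Rad54b counts are uncertain.

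Of the mismatch repair genes, Msh6 (chr17:87975062-87990892, plus strand), a sensor of mismatched bases, was at 132, 175 and 181 CPM in the M0 libraries, 136, 147 and 140.1 in M1, 175, 177 and 175 in M2 and 77.8, 76.1 and 76.1 in TAM. The 3 TAM libraries lay close together and below all others. The log2 change was −1.09 ± 0.12 (edgeR adjusted p = 1.87e-05) against M0, or −1.22 ± 0.04 without M0 replicate 1 (edgeR adjusted p = 8.25e-30), and −1.20 ± 0.12 (edgeR adjusted p = 1.01e-05) against M2. Pms2, the nuclease subunit that acts after recognition, was at 13.6, 13.6 and 14.1 CPM in TAM and 12.6, 17.8 and 15.7 in M0. TAM libraries fell among the M0 libraries when M0 replicate 1 was kept. The change was −0.16 ± 0.14 (edgeR adjusted p = 0.388) with all libraries and −0.28 ± 0.11 without M0 replicate 1 (edgeR adjusted p = 0.0228).

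The damage sensors and checkpoint kinases did not move as 1 group: with all libraries Nbn was lower in TAM than in M0, Atr was higher, and Rad50, Atm, Chek1 and Chek2 were not called. Without M0 replicate 1, Rad50, Nbn, Atm and Chek1 were lower, Atr was higher and Chek2 was not called. As shares, 16.7% of these genes were lower and 16.7% higher with all libraries, under the 27.2% and 23.3% of all genes. With M0 replicate 1 left out they were 66.7% and 16.7%, against 33.7% and 33%. Atr (chr9:95857597-95951781, plus strand), the kinase of stalled forks, was at 14.3, 39.4 and 42.02 CPM in the M0 libraries, 51.4, 53.6 and 52.2 in M1, 42.5, 42.1 and 38.7 in M2 and 64.7, 60.9 and 70.2 in TAM. The TAM libraries were the highest of all, M1 next, and M0 replicate 1 far below the rest. Atr rose by 1.03 ± 0.29 (edgeR adjusted p = 0.0132) on the log2 scale against M0, or 2.04-fold, and by 0.67 ± 0.07 without M0 replicate 1 (edgeR adjusted p = 5.03e-13), or 1.60-fold. Against M2 its change was 0.67 ± 0.29 (edgeR adjusted p = 0.0876) with all libraries and 0.66 ± 0.06 without M0 replicate 1 (edgeR adjusted p = 1.32e-14). Nbn (chr4:15957925-15992589, plus strand), which brings ATM to breaks, was at 50.4, 58.8 and 60.04 CPM in the M0 libraries, 44.7, 46.4 and 43.6 in M1, 50.6, 57.3 and 52.1 in M2 and 42.95, 39.9 and 43.7 in TAM, with a log2 change from M0 of −0.42 ± 0.10 (edgeR adjusted p = 0.00377). TAM and M1 libraries lay below all M0 and M2 libraries. Nbn was also lower in TAM than in M2, at −0.34 ± 0.10 (edgeR adjusted p = 0.0138), a call lost without M2 replicate 2, at −0.29 (edgeR adjusted p = 0.0621), and without TAM replicate 2, at −0.31 (edgeR adjusted p = 0.0577).

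Atm (chr9:53439149-53536740, minus strand), the kinase of double-strand breaks, had the widest range of the 32 genes and is given after its values were seen. It was at 8.42, 119 and 113 CPM in the M0 libraries, 237, 268 and 248 in M1, 114, 116 and 106 in M2 and 63.2, 65.1 and 73.7 in TAM. All M1 libraries were above every other library, TAM libraries lay below M2 and below M0 replicates 2 and 3, and M0 replicate 1 was lowest. Against M1, the TAM change was −1.90 ± 0.64 (edgeR adjusted p = 0.0325) with all libraries, a call lost without any 1 M1 or TAM library (adjusted p from 0.0609 to 0.0895), and −1.94 ± 0.05 without M0 replicate 1 (edgeR adjusted p = 1.49e-26). Against M0 it was −0.25 ± 0.62 (edgeR adjusted p = 0.757) with all libraries and −0.79 ± 0.06 without M0 replicate 1 (edgeR adjusted p = 7.45e-14). Atm reads per Atr read were 0.977, 1.07 and 1.05 in TAM, 2.67, 2.75 and 2.74 in M2 and 4.61, 4.99 and 4.76 in M1, with 0.588, 3.02 and 2.69 in M0. The ratio separated TAM, M2 and M1 with no overlap, and M0 replicate 1 was below all 11 other libraries. Gene pairs were chosen after their values were seen and their ratios carry no test.

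Chek1, the effector kinase of ATR and also given after its values were seen, was at 34.9, 58.5 and 61.8 CPM in M0, 43.1, 44.2 and 38.98 in M1, 54.7, 53.1 and 53.3 in M2 and 42.6, 35.4 and 38.3 in TAM. Its log2 change in TAM was −0.42 ± 0.18 (edgeR adjusted p = 0.0733) against M0 with all libraries and −0.64 ± 0.07 without M0 replicate 1 (edgeR adjusted p = 4.93e-12). Chek2, the effector of ATM and again chosen after its values were seen, was at 31.9, 34.2 and 34.8 CPM in the M0 libraries, 28.9, 25.5 and 28.2 in M1, 34.4, 34.3 and 32.4 in M2 and 34.02, 33.6 and 35.6 in TAM. TAM, M2 and M0 libraries overlapped, and M1 libraries lay below them all. Chek2 was the 1 gene called higher in TAM than in M1 with all libraries, by 0.32 ± 0.09 (edgeR adjusted p = 0.0104). That call was lost without M1 replicate 2, at 0.26 (edgeR adjusted p = 0.062), without TAM replicate 1, at 0.29 (edgeR adjusted p = 0.0557), and without TAM replicate 3, at 0.25 (edgeR adjusted p = 0.0843).

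**Figure D5:**
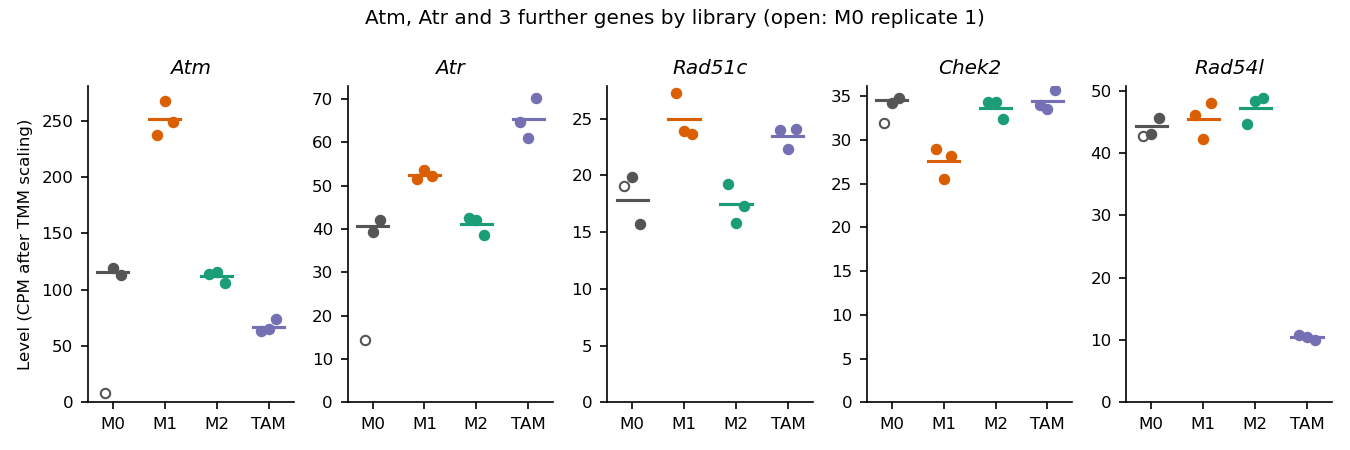
Level (CPM after TMM scaling, axis from 0) of Atm, Atr, Rad51c, Chek2 and Rad54l in each library by group; bars are group means, that of M0 without replicate 1, which is the open circle. Atm is highest in M1, Atr and Rad51c are raised in TAM and M1, Chek2 is lowest in M1, and Rad54l is lowest in TAM.

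Medium from INF-γ-treated macrophages gave fewer calls. With all libraries, 4 genes were lower in M1 than in M0 (Xrcc3, Exo1, Nbn and Chek2) and Rad51c was higher. As shares these were 12.5% and 3.12%, against 13.5% and 12.2% of all genes. The count of lower genes is thus near the share over all genes. The 4 decreases ran from −0.29 for Xrcc3 and Chek2 to −0.33 for Nbn on the log2 scale, and leaving out any 1 other library than M0 replicate 1 took their number to 0 or 1. Rad51c rose by 0.45 ± 0.12 (edgeR adjusted p = 0.0172), a call lost without M1 replicate 1, at 0.39 (edgeR adjusted p = 0.0765). Without M0 replicate 1, 10 genes were lower and 6 higher, or 31.2% and 18.8%, against backgrounds of 22.9% and 24.3%. The 10 were Brca1, Palb2, Fancm, Xrcc2, Xrcc3, Exo1, Msh6, Chek1, Chek2 and Nbn, with the lowest changes in Chek1 at −0.48 ± 0.07 (edgeR adjusted p = 3.31e-08) and Brca1 at −0.42 ± 0.05 (edgeR adjusted p = 3.24e-10). The 6 were Bard1, Brip1, Rad51c, Atm, Atr and Rad50. Atm had the highest, at 1.15 ± 0.06 (edgeR adjusted p = 2.07e-18), or 2.22-fold, followed by Rad51c at 0.53 ± 0.10 (edgeR adjusted p = 1.03e-05) and Atr at 0.40 ± 0.07 (edgeR adjusted p = 1.59e-06). With all libraries the change of Atm was 1.65 ± 0.63 (edgeR adjusted p = 0.0781) and was not called. The median of the 32 was −0.0024 without M0 replicate 1, against 0.0109 over all genes. Brca1 and its partner Bard1 thus differed in sign in M1, and the partners Nbn and Rad50 did as well. Reads of Nbn per Rad50 read were 0.344, 0.354 and 0.343 in M1 and 0.431, 0.453 and 0.425 in M2.

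Set against M2 with the same M1 libraries, 3 genes were lower in M1 (Xrcc3, Exo1 and Chek2) and Rad51c was higher (backgrounds 7.5% and 9.72%). The lower genes were 9.38% of the 32, near the share over all genes. Without M0 replicate 1, 12 were lower and 5 higher, against 23.5% and 24.8%, and a fit of only the M1 and M2 libraries called 13 lower and 5 higher, against 24.6% and 25.8%. Atm was at 237, 268 and 248 CPM in M1 and 114, 116 and 106 in M2, a log2 change of 1.17 ± 0.62 (edgeR adjusted p = 0.264) with all libraries and 1.20 ± 0.05 without M0 replicate 1 (edgeR adjusted p = 1.33e-20). Leaving out 1 library at a time other than M0 replicate 1, the number lower was 1 to 3. It was 1 without M1 replicate 1, M1 replicate 3 or M2 replicate 1. The Rad51c call was lost without M1 replicate 1, at 0.45 (edgeR adjusted p = 0.054), and without M2 replicate 2, at 0.45 (edgeR adjusted p = 0.0571).

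Medium from IL-4-treated macrophages gave no call. No gene of the 32 differed between M2 and M0 in edgeR's test with all libraries or without M0 replicate 1. Nor did any with DESeq2 or limma-voom, which were run with all libraries only. In edgeR's test, 0% of all genes were called in either direction with all libraries. Without M0 replicate 1, edgeR called 0.134% lower and 0.207% higher. At an unadjusted p under 0.05 there were 0 of the 32 with all libraries, against 980 of 14591 genes tested. Without M0 replicate 1 there were 5 of the 32, against 1064 of 14968, a larger share of the 32 than of all genes. The log2 changes lay between −0.23 and 0.48, and between −0.16 and 0.21 without M0 replicate 1. Rad54l, for instance, had 44.6, 48.3 and 48.8 CPM in M2 and 42.8, 43.1 and 45.6 in M0.

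A wider list of 91 other repair genes, all of which were tested, moved in both directions: 39 were lower in TAM than in M0 and 10 higher, with a median log2 change of −0.31 (47 and 21 without M0 replicate 1). As shares these were 42.9% lower and 11% higher, against 27.2% and 23.3% of all genes tested, and 51.6% and 23.1% without M0 replicate 1, against 33.7% and 33%. Mismatch repair and its replication partners had 5 lower and 1 higher of 7, led by Lig1, the ligase that seals nicks, at 288 ± 55.4 CPM (mean ± SD, n = 3) in M0 and 47.8 ± 1.07 in TAM, and by Pcna, the sliding clamp, at 495 ± 14.4 and 220.3 ± 3.56. Their log2 changes were −2.59 ± 0.13 (edgeR adjusted p = 8.78e-08) and −1.17 ± 0.08 (edgeR adjusted p = 7.77e-07). Homologous recombination had 11 lower and 4 higher of 21. Tonsl, which acts at stalled forks, changed by −1.60 ± 0.09 (edgeR adjusted p = 1.61e-07). Among those higher were Sfr1, an accessory factor of recombination, at 0.59 ± 0.08 (edgeR adjusted p = 0.000107), and the helicase gene Recql4, at 0.63 ± 0.11 (edgeR adjusted p = 0.000654). Fanconi and crosslink repair had 9 lower and 0 higher of 17. Checkpoint and break signalling had 6 lower and 2 higher of 18, with Rad17, the clamp loader of the ATR pathway, higher by 0.64 ± 0.08 (edgeR adjusted p = 6.95e-05). Excision repair had 7 lower and 3 higher of 20, and the lower counts of this list and of checkpoint signalling are near the share over all genes. The excision repair genes named here are Neil3, a glycosylase, at −2.41 ± 0.14 (edgeR adjusted p = 3.38e-07) and Xpc, the sensor of nucleotide excision repair, at 0.46 ± 0.09 (edgeR adjusted p = 0.00147). End joining, the repair of breaks without a template, had 1 lower (Xrcc5) and 0 higher of 8, and 2 lower and 6 higher without M0 replicate 1, with a median of 0.18 and 0.34.

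Downstream of the kinases, 9 of 16 checkpoint effector and p53 pathway genes were higher in TAM than in M0 and 4 were lower, where 23.3% of all genes were called higher and 27.2% lower, so the count of lower genes is near the share over all genes. Gadd45a, a damage-induced growth arrest gene, was at 6.07, 2.88 and 3.59 CPM in M0, 11.2, 8.25 and 7.29 in M1, 3.28, 3.57 and 4.26 in M2 and 168, 164 and 163 in TAM. All TAM libraries stood far above the rest, a log2 change of 5.30 ± 0.26 (edgeR adjusted p = 1.03e-07). Btg2, an antiproliferative p53 target, rose by 2.85 ± 0.14 (edgeR adjusted p = 6.59e-08), and Mdm2, the ligase that degrades p53 and is itself a p53 target, by 2.03 ± 0.15 (edgeR adjusted p = 1.42e-06). Cdc25b, a phosphatase that drives entry into mitosis, fell by 1.63 ± 0.09 (edgeR adjusted p = 1.29e-07). Without M0 replicate 1, 9 were higher and 6 lower, against 33% and 33.7%.

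Most proliferation genes were lower in TAM too. Of 17 markers of DNA replication and division, 16 were lower in TAM than in M0 and none higher, with a median log2 change of −1.21, and all 17 were lower without M0 replicate 1. Of all genes tested, 27.2% were lower, or 33.7% without M0 replicate 1. The replicative helicase genes Mcm6, Mcm3 and Mcm5 changed by −2.16 ± 0.08 (edgeR adjusted p = 2.01e-08), −1.43 ± 0.09 (edgeR adjusted p = 3.71e-07) and −2.07 ± 0.13 (edgeR adjusted p = 6.16e-07), and Cdc6, which loads that helicase, by −1.66 ± 0.09 (edgeR adjusted p = 1.83e-07). In M1, 11 of the 17 were lower than in M0 and none was higher, against 13.5% and 12.2% of all genes, with a median of −0.45, where the 32 repair genes had a median of 0.01. With M0 replicate 1 left out, 16 were lower, against 22.9%, and the medians were −0.46 and −0.0024. The part of the proliferation genes in the repair gene results was not tested.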

How the data were processed

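RNA was sequenced from 12 libraries of B16F10 cells, 3 in each of the 4 groups named by the labels. A single table of counts, deposited by the authors, covers 55487 Ensembl genes in whole reads with no normalisation. The submitters' processing notes list HISAT2 2.0 and mm10; the counter, annotation and strand setting were not given in the sources used here. Per the labels' protocols, Trizol RNA was made into Illumina mRNA libraries. Without a known strand setting, reads of overlapping genes on opposite strands cannot be told apart, and long genes depend on intact RNA.

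Symbols, coordinates (GENCODE M21, GRCm38) and merged exon lengths were matched by identifier, and 55141 of the identifiers had a symbol. The 32 genes and all lists (187 genes, all matched) were chosen with earlier results of these data known; some other repair genes are not reported here. Tests used edgeR 4.0.16 (R 4.3.3): filterByExpr by group, TMM, and 1 robust quasi-likelihood fit of all 12 libraries with a mean per group. Benjamini-Hochberg adjustment ran over all 14591 genes tested (14968 without M0 replicate 1), and a gene was called at an adjusted p under 0.05. Standard errors are the log2 change divided by the root of the F statistic. The procedure was run on simulated data with the same spread for all genes and no library that stood apart. That run therefore says nothing of the effect of M0 replicate 1. Totals of 15916756 to 20863973 reads set the precision; counts cover reads, not independent molecules.

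Genes shown in every library were, in each role group, up to 3 called in TAM versus M0 with the largest change, plus any called higher than M0; of the other lists, the 4 with the smallest adjusted p among those called (in the wider list, 4 in each direction). All other genes named were chosen after their values were seen. Alternatives were RLE and upper-quartile factors, no filter, DESeq2 1.42.0, limma-voom (limma 3.58.1), only the groups compared, a replicate block, and leaving out each library. Same-numbered libraries of different groups were checked for a shared deviation: over 18 pairs r ran from −0.129 to 0.163 and 1 was over 0.1, so the numbers were not taken as pairs. Deviations in M0 were taken from a mean that holds replicate 1, and there replicates 2 and 3 deviated together (r = 0.533). Pairs with M0 therefore say little, and the check was not repeated without that library. No libraries within a group differed by counting noise alone, as the lowest chi-square per gene between libraries was 2.31. That check cannot tell separate cultures from separate preparations of 1 culture.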

Additional observations from a re-analysis of the deposited data

How the results depend on the processing

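The decrease of the repair genes in TAM kept its direction under every alternative run, with 18 to 22 of the 32 lower than in M0 under the changes of scaling, filter, tool, fit or block. Leaving out 1 library gave 18 to 27 lower than in M0, 17 to 27 lower than in M1 and 20 to 28 lower than in M2, the highest each time without M0 replicate 1. There the share of all genes called lower rose too. It went from 27.2% to 33.7% against M0, from 23.3% to 37.7% against M1 and from 22.6% to 35.3% against M2. For most other settings of this section the share over all genes is not given, so those counts are a description. The few genes called higher in TAM were less stable: leaving out 1 library gave 1 to 2 against M0 and 0 to 2 against M1 and M2. Without a low-count filter there was 1 higher than in M0, 0 higher than in M1 and 0 higher than in M2. With only the 2 groups compared in the fit there were 0, 2 and 2. The calls between M1 and M0 rested on the processing. From 4 lower, the number went to 0 without a filter, 0 with only the 2 groups and 2 with the replicate block, and to between 0 and 10 when 1 library was left out. From 1 higher, it went to 2 with RLE factors, 4 with DESeq2, 3 with limma-voom and 0 with only the 2 groups, and to between 0 and 6 without 1 library. Of all genes, 13.5% were lower and 12.2% higher with all libraries, against 22.9% and 24.3% without M0 replicate 1. Between M1 and M2, 3 lower became 0 without a filter and 13 with only the 2 groups, and 1 to 12 without 1 library, while 1 higher became 5 with only the 2 groups and 0 to 5 without 1 library. In that comparison 7.5% of all genes were lower and 9.72% higher with all libraries. The shares were 23.5% and 24.8% without M0 replicate 1, and 24.6% and 25.8% with only the 2 groups. For M2 versus M0 the counts stayed at 0 in both directions. Fits without a filter test more genes and fits of 2 groups use fewer libraries; otherwise the cause was not tested.

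The replicate block left 18 lower and 2 higher in TAM versus M0, 21 and 1 against both M1 and M2, and in M1 2 lower and 1 higher against each of M0 and M2. It gave no paired result, since 3 libraries of 12 correlated best with a library of their own number. Over 122 results for single genes and 2318 alternatives, 2084 kept call and direction, 140 lost the call, 85 gained one and 9 changed sign. In TAM versus M0, limma-voom put Fancm at 0.13 (adjusted p = 0.808) and Atm at 0.47 (adjusted p = 0.622). The other sign changes came from leaving out 1 M0 library. Over the libraries left out, Fancm ran from −0.54 to 0.18 in TAM versus M0 and from −0.33 to 0.36 in M1 versus M0, and in TAM versus M0 Fancd2 ran from −0.34 to 0.044 and Atm from −0.79 to 0.14. The lowest count of a gene in a library was 40 reads, and the effect of depth on the calls was not tested. No setting moved the median change of all genes by over 0.1 on the log2 scale.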
